A study of Ctenopharyngodon idella and Danio rerio with 13 samples.

Results

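The genes described here encode proteins of meiotic synapsis and recombination. They were chosen by symbol from a list of 10 (sycp1, sycp2, sycp3, syce1, syce2, msh4, msh5, dmc1, spo11 and hormad1), and 8 of them were matched among the 31314 named entries of the deposited count tables. The genes sycp2 and syce1 were not analysed here. The counts come from sperm RNA of 13 fish, 1 library per fish. GSCT (germline stem cell transplantation) sperm came from 3 zebrafish that had received germline stem cells, which the series title calls female. The labels give the organism of this sperm as grass carp and the genotype as surrogate reproduction. Reference sperm came from 5 wild-type grass carp and 5 wild-type zebrafish. The labels give no strain, age or treatment, and do not say which germ cells the hosts still had. The stated purpose was to see whether the sperm agree genetically.

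In meiotic prophase, homologous chromosomes pair and are held together by the synaptonemal complex, while programmed breaks in the DNA are repaired to form crossovers. SPO11 makes the breaks, DMC1 carries out strand exchange between homologues, and the MSH4-MSH5 pair stabilises intermediates on the way to crossovers. SYCP3 and HORMAD1 belong to the chromosome axis, SYCP1 forms the transverse filaments that zip the axes together, and SYCE2 belongs to the central element between them. These steps take place in spermatocytes. Sperm form later, are largely silent in transcription, and carry RNA left from earlier stages.

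A GSCT library held 376926 to 2602370 counts on named genes, a grass carp library 1335167 to 5471312 and a zebrafish library 487 to 248321. Zebrafish replicate 3 was the library with 487 counts, and in zebrafish replicate 1 ribosomal RNA genes held 86.1% of them. All named entries outside numbered tRNA genes match a grass carp gene table, so the zebrafish libraries too were counted on another species' gene set. A low zebrafish count can thus also mean that reads did not align. Of 25130 protein-coding genes, 96.1% to 99.5% had a count in a GSCT library and 99.2% to 99.7% in a grass carp library, against 0.875% to 23.3% in a zebrafish library. Spermatid and sperm markers, 23 of 28 matched, summed to 846 to 982 CPM (counts scaled to a library total of 1e6 named counts) in GSCT, 881 to 970 CPM in grass carp and 141 to 2482 CPM in zebrafish libraries. Testis somatic markers, 15 of 18 matched, summed to 493 to 512 CPM in GSCT, 490 to 561 CPM in grass carp and at most 16.9 CPM in zebrafish libraries. Oocyte markers, 8 of 13, summed to 130 to 135 CPM in GSCT, 115 to 128 CPM in grass carp and at most 33.8 CPM in zebrafish, and blood markers, 7 of 12, to 237 to 281 CPM in GSCT, 221 to 285 CPM in grass carp and at most 40.3 CPM in zebrafish. Per kb of gene span, the median sperm marker was at 2.42 to 2.71 CPM per kb in GSCT and 2.39 to 3.05 in grass carp libraries, and the median oocyte marker at 5.49 to 6.30 in GSCT and 4.40 to 6.38 in grass carp libraries. Dividing by span raises short genes, so these medians do not rank the 2 marker sets. Markers of cells other than sperm were thus present in GSCT and grass carp libraries too. Which markers are present does not tell the labelled cell type apart. In zebrafish 17 of 23 sperm, 3 of 10 germ granule, 2 of 15 testis somatic, 3 of 8 oocyte, 3 of 7 blood and 5 of 12 leukocyte markers had a count, where 66.9% of protein-coding genes had none.

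**Figure D1:**
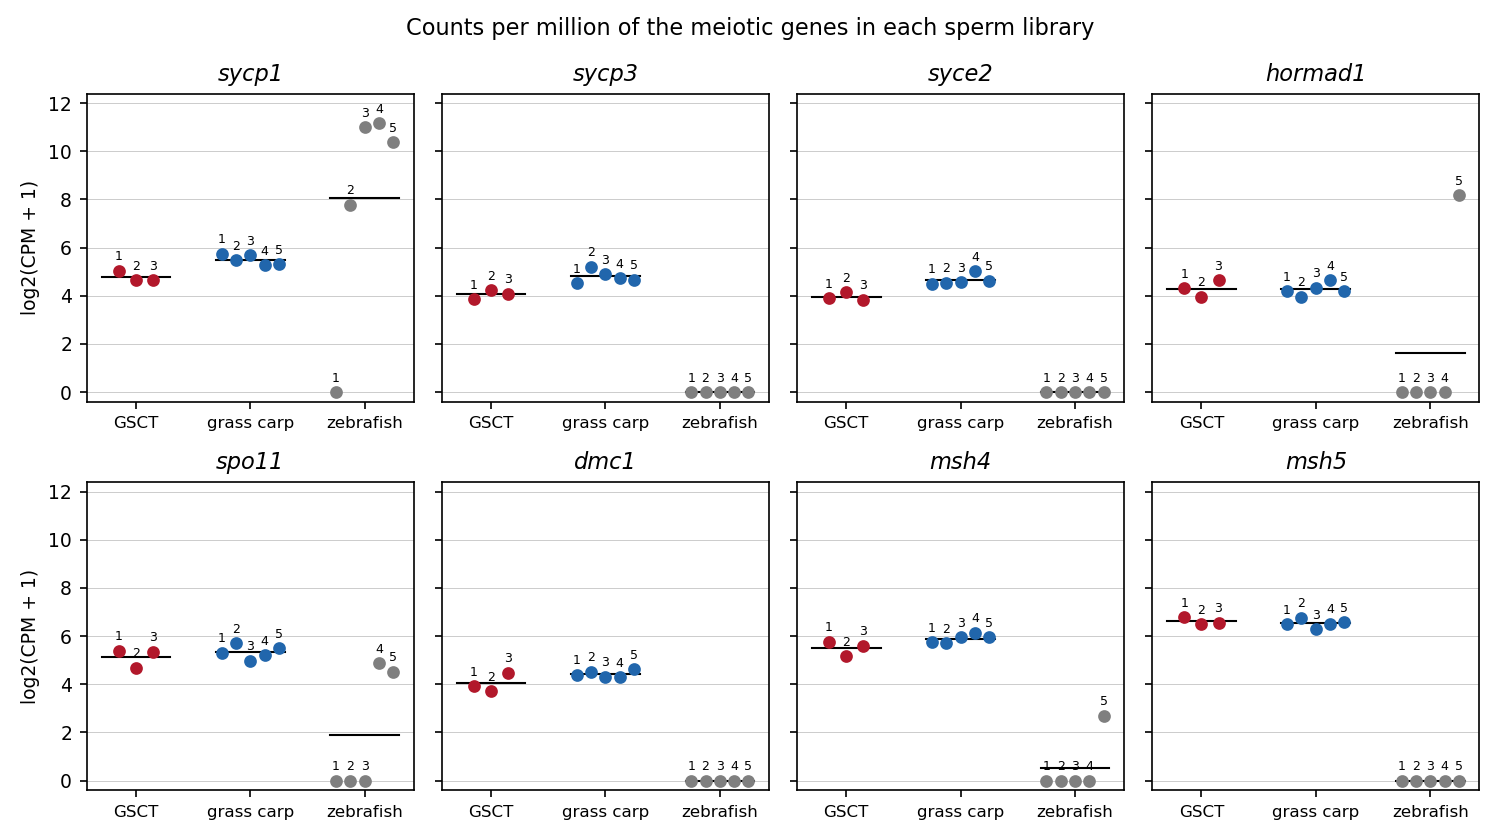
Level of each of the 8 meiotic genes, as log2(CPM + 1), in every GSCT, grass carp and zebrafish library. Points are libraries with their replicate numbers and bars are means of the plotted values. The zebrafish points are at 0 in all 5 libraries for sycp3, syce2, dmc1 and msh5. For sycp1 they are above the other groups in 4 of 5, on named counts, which leave out the unnamed entries.

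All 8 genes had counts in each GSCT and each grass carp library. Together they made up 270 ± 31.5 CPM over the 3 GSCT libraries and 326 ± 15.8 CPM over the 5 grass carp libraries (SD). Levels of different genes were compared per kb of annotated gene span, introns included. In GSCT the order by mean was dmc1 (4.43 ± 1.33 CPM per kb), msh5 (4.38 ± 0.468), sycp3 (4.36 ± 0.602), sycp1 (3.49 ± 0.610), msh4 (3.07 ± 0.634), hormad1 (1.98 ± 0.488), syce2 (1.46 ± 0.191) and spo11 (1.18 ± 0.303), with SD over 3 libraries. Each of these overlapped the next in the order. In grass carp the order was sycp3 (7.56 ± 1.48 CPM per kb), sycp1 (5.85 ± 0.909), dmc1 (5.78 ± 0.601), msh5 (4.14 ± 0.505), msh4 (3.99 ± 0.508), syce2 (2.42 ± 0.406), hormad1 (1.92 ± 0.361) and spo11 (1.34 ± 0.267), with SD over 5 libraries. There the ranges parted in 2 places, between dmc1 and msh5 and between msh4 and syce2.

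The 8 genes spread over most of the range of protein-coding genes. The median protein-coding gene stood at 2.28 ± 0.0947 CPM per kb in GSCT (SD, n = 3) and 2.52 ± 0.101 CPM per kb in grass carp (SD, n = 5), and the median of the 8 genes at 3.20 ± 0.459 CPM per kb in GSCT and 4.06 ± 0.257 CPM per kb in grass carp. The median testis somatic marker was at 3.66 to 4.36 CPM per kb in GSCT and 3.74 to 4.30 in grass carp libraries. For blood markers these ranges were 3.70 to 4.62 and 3.29 to 4.23, and for leukocyte markers 2.00 to 2.19 and 2.17 to 2.47. A median above that of protein-coding genes was thus not particular to the 8 genes. By mean level in grass carp, sycp3 lay above 95.2% of protein-coding genes and sycp1 above 89.0%, while in GSCT sycp3 lay above 79.8% and sycp1 above 69.9%. At the low end, spo11 lay above 23.7% in GSCT and 24.4% in grass carp. These places depend on dividing by gene span. In CPM alone spo11 was at 24.8 to 41.1 in GSCT and 30.4 to 51.2 in grass carp libraries. For sycp3 these ranges were 13.4 to 17.8 CPM in GSCT and 21.9 to 35.8 CPM in grass carp.

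**Figure D2:**
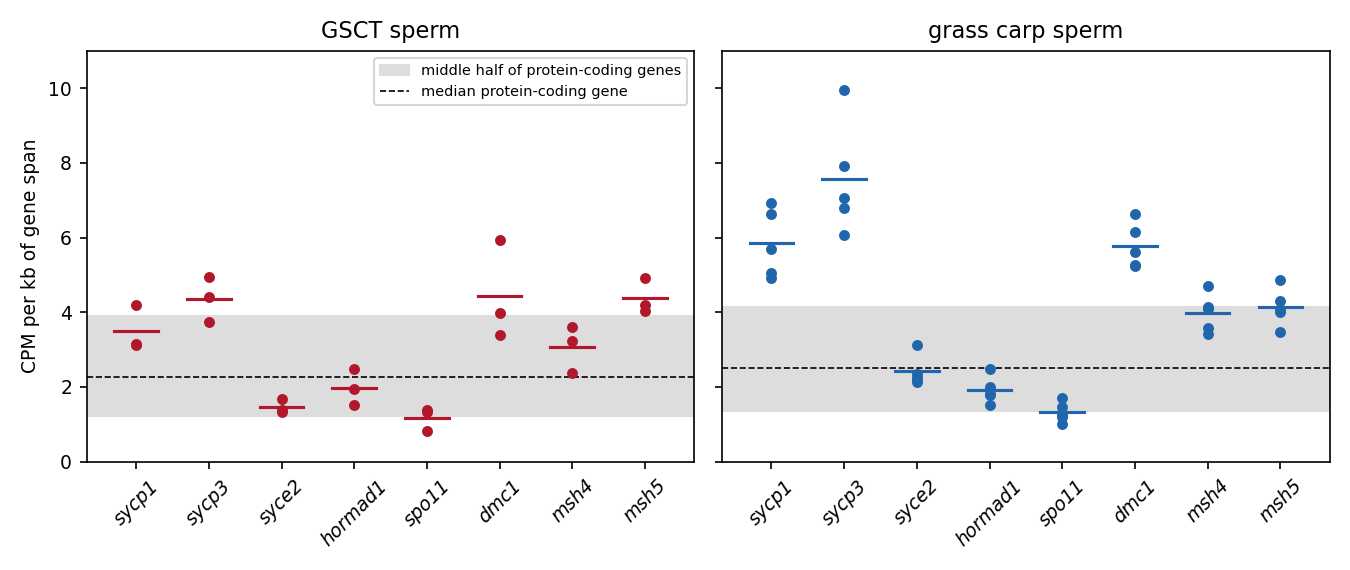
Level of the 8 genes in CPM per kb of gene span in GSCT (left) and grass carp (right) libraries; points are libraries, coloured bars their means. The grey band is the range between the quartiles of 25130 protein-coding genes by group mean and the dashed line is the median protein-coding gene, at 2.28 in GSCT and 2.52 in grass carp; every grass carp library of sycp3, sycp1 and dmc1 lies above the band.

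In GSCT against grass carp sperm, sycp1, sycp3 and syce2 were lower in every GSCT library than in any grass carp library, as were 9.67% of all genes tested, and of these 3 sycp1 passed the test. The groups overlapped for the other 2 matched synaptonemal complex genes, sycp2l and syce3 (log2 differences 0.12 and -0.35; edgeR adjusted p = 0.690 and 0.638). sycp1 was at 31.9, 23.9 and 23.9 CPM in GSCT replicates 1 to 3, against 52.8, 43.4, 50.4, 37.4 and 38.4 CPM in grass carp replicates 1 to 5. The 2 groups did not overlap, and GSCT replicate 1 and grass carp replicate 4 were closest. On the log2 scale sycp1 fell by 0.64 ± 0.18 (SE; edgeR quasi-likelihood test, adjusted p = 0.0447). In bulk sperm, fewer cells with a transcript and less of it per cell cannot be told apart. Whether the reads came from transcripts of the gene at all, mature or not, was not tested.

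sycp3, of the axis, was at 13.4, 17.8 and 15.9 CPM in GSCT replicates 1 to 3, against 21.9, 35.8, 28.5, 25.5 and 24.5 CPM in grass carp replicates 1 to 5. The groups did not overlap. The log2 difference was -0.74 ± 0.22 (SE; edgeR adjusted p = 0.0657), which did not pass the adjusted threshold. syce2, of the central element, was at 13.8, 16.8 and 13.3 CPM in GSCT replicates 1 to 3, against 21.5, 22.2, 22.6, 31.5 and 23.6 CPM in grass carp replicates 1 to 5. Here too the groups did not overlap, with a log2 difference of -0.58 ± 0.21 (SE; edgeR adjusted p = 0.130).

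Among the 8, the break gene spo11 and the strand exchange gene dmc1 overlapped between the groups. spo11 was at 41.1, 24.8 and 39.8 CPM in GSCT replicates 1 to 3, against 38.5, 51.2, 30.4, 35.95 and 44.2 CPM in grass carp replicates 1 to 5. The log2 difference was -0.17 ± 0.21 (SE; edgeR adjusted p = 0.709). dmc1 was at 14.2, 12.2 and 21.2 CPM in GSCT replicates 1 to 3, against 20.1, 22.0, 18.9, 18.7 and 23.8 CPM in grass carp replicates 1 to 5. Only GSCT replicate 3, where dmc1 had 8 counts, reached the grass carp range, and the log2 difference was -0.49 ± 0.22 (SE; edgeR adjusted p = 0.222). For the axis gene hormad1 the values were 18.8, 14.5 and 23.9 CPM in GSCT replicates 1 to 3 and 17.2, 14.6, 19.2, 24.0 and 17.4 CPM in grass carp replicates 1 to 5. These ranges nearly coincided, with a log2 difference of 0.040 ± 0.22 (SE; edgeR adjusted p = 0.956).

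The crossover pair overlapped as well. msh4 was at 53.4, 35.1 and 47.8 CPM in GSCT replicates 1 to 3, against 53.0, 50.7, 61.1, 69.7 and 60.7 CPM in grass carp replicates 1 to 5. GSCT replicates 2 and 3 lay below the grass carp range and replicate 1 within it (log2 difference -0.31 ± 0.16, SE; edgeR adjusted p = 0.301). Its partner msh5 was at 109, 89.8 and 92.9 CPM in GSCT replicates 1 to 3, against 88.7, 108, 77.4, 89.9 and 95.2 CPM in grass carp replicates 1 to 5. It had the most counts of the 8 genes in both groups, and its log2 difference was 0.16 ± 0.14 (SE; edgeR adjusted p = 0.571).

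**Figure D3:**
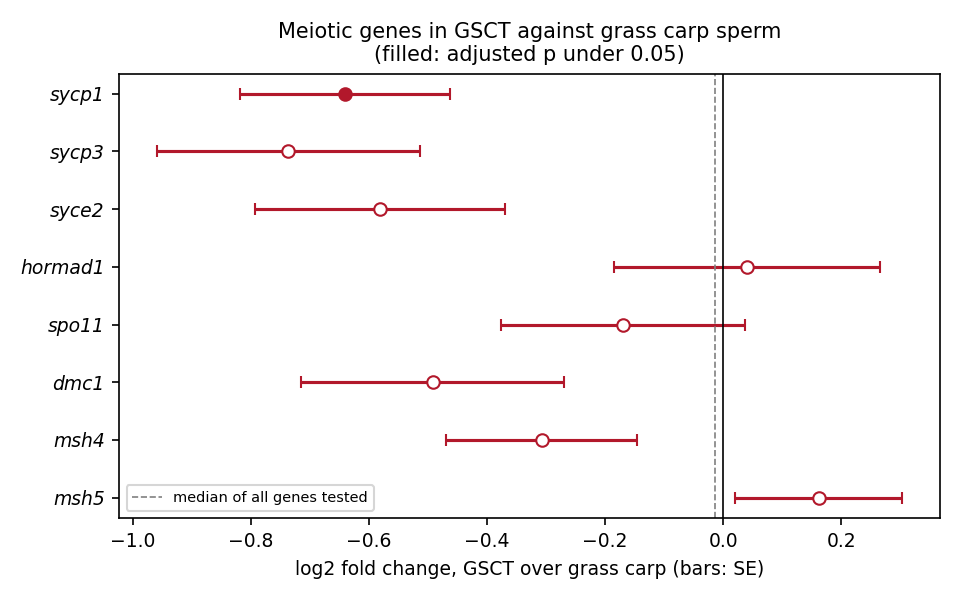
Log2 fold change of the 8 genes, GSCT over grass carp, from edgeR; bars are SE and filled points passed adjusted p under 0.05. Only sycp1 is filled, at -0.64, with sycp3 at -0.74 and syce2 at -0.58 beside it; the dashed line is the median of all genes tested, at -0.014.

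Of the 8 genes, 1 fell and 0 rose, where 4.34% of 28165 genes tested passed in either direction with 3.49% higher and 0.849% lower in GSCT (984 and 239 genes, against 718 and 422 with library size alone). Before adjustment, p was under 0.05 for 4 of the 8, namely sycp1, sycp3, syce2 and dmc1, and for 5629 of all genes. DESeq2 called 0 of the 8. Every GSCT library was below every grass carp library for 3 of the 8, and for 9.67% of all genes tested. The reverse held for 0 of the 8 and for 6.04% of all genes. The median log2 difference of the 8 genes was -0.40, with 6 negative and 2 positive, against a median of -0.014 over all genes tested. The call of sycp1 was lost without GSCT replicate 1, 2 or 3 (log2 -0.84, -0.54 and -0.61; edgeR adjusted p = 0.0638, 0.300 and 0.0989), and without grass carp replicate 1 or 3 (-0.56 and -0.62; adjusted p = 0.0794 and 0.0823). DESeq2 gave it adjusted p = 0.0756, and a fit over all 3 groups adjusted p = 0.856. sycp3 passed with scaling by library size alone (-0.81, adjusted p = 0.0460) and without grass carp replicate 1 (-0.81, adjusted p = 0.0381).

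Some other measures differed between the same groups. Germ granule and early germ cell markers, 10 of 12 matched, summed to 403 to 410 CPM in GSCT and 460 to 658 CPM in grass carp, and leukocyte markers, 12 of 15, to 421 to 446 CPM in GSCT and 469 to 689 CPM in grass carp. Of the 10 germ cell markers 4 log2 differences were positive and 6 negative (median -0.10), and of the 12 leukocyte markers 3 and 9 (median -0.18). The 1 germ cell marker that passed by edgeR was tdrd6, of germ granules, named after its values were seen, at 45.1 to 54.7 CPM in GSCT and 66.4 to 272 CPM in grass carp (adjusted p = 0.0138). By mean, tdrd6 held 49.7 of the 407 CPM of this list in GSCT and 147 of the 526 CPM in grass carp. The gap between the summed germ cell markers was thus largely that gene. Of the 7 blood markers alas2, an enzyme of heme synthesis named in the same way, was lower in GSCT (edgeR adjusted p = 0.0288), and 0 of 12 leukocyte, 0 of 23 sperm, 0 of 15 testis somatic and 0 of 8 oocyte markers passed, with 6, 2, 2 and 2 at an unadjusted p under 0.05. No marker in these lists was at 0 over a whole GSCT or grass carp group. Their part in the result was not tested. Mitochondrial genome genes held 0.618% to 1.79% of counts in GSCT and 0.0113% to 0.0278% in grass carp, and ribosomal RNA genes 0.994% to 1.79% in GSCT and 0.0553% to 0.118% in grass carp. With both left out of the counts, sycp1 was at -0.64 on the log2 scale (edgeR adjusted p = 0.0473).

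The spread in GSCT was below counting error for some of the 8 genes and above it for others. The coefficient of variation of sycp3 was 13.8% over GSCT libraries, where counting alone would give 27.5%, and 19.6% over grass carp libraries, where counting would give 10.8%. For sycp1 it was 17.5% in GSCT, where counting would give 20.4%, and 15.6% in grass carp, where counting would give 8.30%. For spo11 it was 25.7% in GSCT, where counting would give 18.5%, and for msh4 20.7%, where counting would give 16.1%. In GSCT replicate 3 the 8 genes held 105 counts in all, from 5 on syce2 to 35 on msh5, so that 9 counts on sycp1 gave 23.9 CPM with an exact 95% interval of 10.9 to 45.3 CPM. In grass carp replicate 5, 210 counts on sycp1 gave 38.4 CPM with an interval of 33.4 to 43.9 CPM. Such intervals cover counting error only, because reads copied in amplification are counted here as if each were a molecule.

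Beyond these genes, 57 of 91 listed symbols of meiotic genes were matched, in 6 lists by role. Some genes were listed under more than 1 symbol, so the unmatched symbols do not give a number of missing genes. Of the 57, 1 passed in GSCT against grass carp, where 4.34% of all genes tested did and 0.849% were lower in GSCT. This was mus81, an endonuclease that resolves recombination intermediates. It was at 16.5, 19.2 and 15.9 CPM in GSCT replicates 1 to 3, against 30.7, 34.5, 31.1, 36.7 and 32.2 CPM in grass carp replicates 1 to 5. Without overlap between the groups, it fell by 0.83 ± 0.18 on the log2 scale (SE; edgeR adjusted p = 0.0121), and did not pass without GSCT replicate 1 (-0.75, adjusted p = 0.100) or replicate 2 (-0.95, adjusted p = 0.0589).

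Against the same shares, 1 of 12 crossover genes was lower, and 0 passed among 2 other synaptonemal complex genes, 9 break and axis genes, 22 strand exchange genes, 7 genes of telomere attachment and meiotic entry and 5 other mismatch repair genes. At an unadjusted p under 0.05 the numbers were 3 crossover, 0 synaptonemal complex, 2 break and axis, 7 strand exchange, 1 telomere and entry and 0 mismatch repair genes. Of all 28165 genes tested 5629 were under that level. The median log2 difference of the 57 genes was -0.12, with 36 negative and 21 positive. All GSCT libraries were below all grass carp libraries for 8 of the 57 and above for 3, where 9.67% and 6.04% of all genes were. Per kb of gene span, the highest of the 57 in GSCT were xrcc3, of recombination repair (11.8 ± 2.73 CPM per kb, SD, n = 3), palb2, a partner of BRCA2 (7.75 ± 0.0865), and pms2, of mismatch repair (7.13 ± 0.565). In grass carp they were xrcc3 (8.96 ± 0.718 CPM per kb, SD, n = 5), pms2 (8.65 ± 0.870) and rpa3, of the single-strand binding complex RPA (8.30 ± 0.868).

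Zebrafish sperm libraries showed another picture: sycp1 held nearly all counts of the 8 genes. That its counts were high in some of these libraries was known when the genes were chosen. sycp1 had 0, 13, 1, 242 and 243 counts in zebrafish replicates 1 to 5, equal to 0, 219, 2053, 2293 and 1326 CPM. The value of replicate 3 rests on 1 count in a library of 487, with an exact 95% interval of 52.0 to 11387 CPM, while that of replicate 4 had an interval of 2013 to 2601 CPM and that of replicate 5 one of 1164 to 1503 CPM. In replicates 4 and 5 sycp1 ranked 43 of 3409 and 93 of 4972 genes with a count, by CPM. It made up 98.8% and 80.7% of the counts of the 8 genes in these libraries, against 8.57% to 10.8% in GSCT and 11.3% to 16.8% in grass carp libraries.

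Replicates 4 and 5 thus stood highest among the deeper zebrafish libraries, replicate 2 was lower, and replicate 1, the library with the most named counts, had none. Since ribosomal RNA genes took most of replicate 1, sycp1 was also set against the other counts alone. On that scale it was at 263, 4843 and 2585 CPM in replicates 2, 4 and 5, and replicate 1 was below 87.2 CPM (3 counts). Both scales leave out unnamed entries, which held 77.9% of all counts in replicate 2. With them included, the sycp1 level of replicate 2 would lie within the grass carp range.

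hormad1 had 53 counts (289 CPM) in zebrafish replicate 5 and 0 in the other 4 libraries. spo11 had 3 counts in replicate 4 and 4 in replicate 5 (28.4 and 21.8 CPM), and msh4 had 1 count in replicate 5. All zebrafish counts on hormad1, spo11 and msh4 thus came from 2 libraries. sycp3, syce2, dmc1 and msh5 were at 0 in all 5 zebrafish libraries, which at 3 counts over their 596856 named counts allows up to 5.03 CPM, or up to 13.1 CPM of the 228180 counts outside ribosomal RNA and mitochondrial genes.

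**Figure D4:**
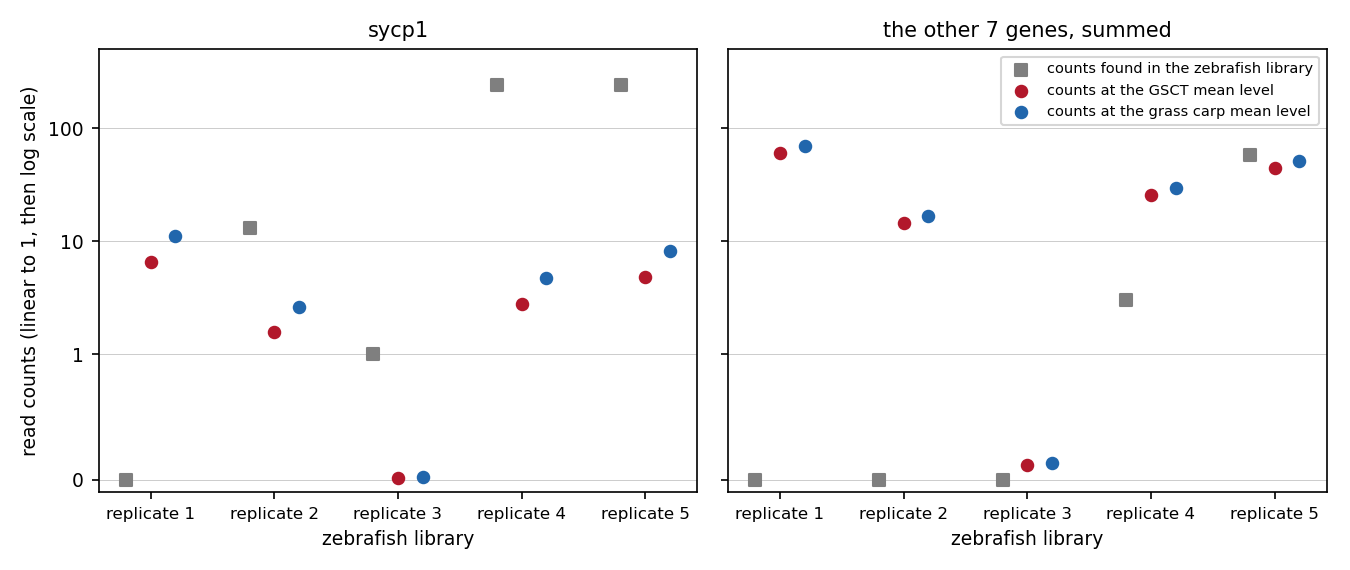
Read counts on sycp1 (left) and on the other 7 genes summed (right) in each zebrafish library (squares), beside the counts that library would hold at the mean CPM of GSCT or of grass carp libraries (circles); the axis is linear up to 1 and logarithmic above. sycp1 exceeds both levels in replicates 2 to 5, with 242 and 243 counts in replicates 4 and 5, and the other 7 genes reach them only in replicate 5, with 58 counts. The high sycp1 counts were known when the genes were chosen.

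These counts were set against what each library's depth would give. At the mean GSCT level, the 7 genes other than sycp1 would have had 145 counts over the 5 zebrafish libraries, and at the mean grass carp level 168, where 61 were found, 53 of them on hormad1. Scaled to counts outside ribosomal RNA and mitochondrial genes, the numbers were 57.0 at the GSCT level and 64.3 at the grass carp level. Both scales leave out unnamed entries, 13.8% to 77.9% of counts in a zebrafish library, and including them would raise these numbers. msh5 would have had 58.1 counts at the GSCT level, or 22.8 on the second scale, where 0 were found. For sycp3, syce2 and dmc1 the second scale gave 3.69, 3.44 and 3.72 counts at the GSCT level, close to the 3 counts that mark the limit of detection here. For sycp1, whose high zebrafish counts were known beforehand, the second scale gave 6.23 counts, where 499 were found.

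In GSCT against zebrafish sperm the test covered 2 of the 8 genes, since the filter on low counts kept 5622 genes here. msh5 was higher in GSCT, at 97.3 ± 10.4 CPM (SD, n = 3) and 0 in zebrafish (edgeR adjusted p = 6.91e-06), which is at least 7.60-fold above the level of 3 counts in the pooled zebrafish libraries with ribosomal RNA and mitochondrial genes left out, and 19.4-fold above it on all named counts. sycp1 was lower in GSCT, where it averaged 26.5 CPM (SD 4.64, n = 3), against 1178 CPM in zebrafish (SD 1041, n = 5). The log2 difference was -6.04 ± 2.03 (SE; edgeR adjusted p = 0.00708), but the groups overlapped, because zebrafish replicate 1 was at 0. High sycp1 counts in some zebrafish libraries were known when the genes were chosen. In this pair sycp1 also passed the filter only through zebrafish libraries, so its p-value adds no separate support. msh5, without zebrafish counts, passed it only through GSCT, which fixed its direction beforehand. Among all genes 87.3% of 5622 tested passed, 77.3% higher and 9.94% lower in GSCT.

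The call of sycp1 against zebrafish was lost without GSCT replicate 3 (-5.60; edgeR adjusted p = 0.0534), with RLE factors (-3.67; adjusted p = 0.0517) and with ribosomal RNA and mitochondrial genes left out (-4.04; adjusted p = 0.0988). The scaling also moved the median of all genes in this comparison, which was 4.14 with TMM, 6.39 with RLE factors and 6.09 with library size alone. Without zebrafish replicate 3 sycp1 stayed past the threshold (-6.31; adjusted p = 0.00312).

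Without a filter all 8 genes were tested, and 5 were higher and 2 lower in GSCT, where 67.5% and 2.91% of 30337 genes were, 70.4% in all. The 5 were sycp3, syce2, msh4, msh5 and dmc1 (edgeR adjusted p from 1.22e-05 to 0.0114), for which every GSCT library also exceeded every zebrafish library, as for 80.9% of all genes. The reverse held for 0 of the 8 and for 0.148% of all genes. sycp3, syce2, msh5 and dmc1, without zebrafish counts, entered this fit only through GSCT. That fixed their direction and the separation of their libraries beforehand. Against the same 3 counts GSCT was at least 1.23-fold higher for sycp3, 1.15-fold for syce2 and 1.24-fold for dmc1 with ribosomal RNA and mitochondrial genes left out, so that little difference is fixed at this depth. On all named counts these values were 3.13-fold, 2.91-fold and 3.16-fold. The 2 lower genes were sycp1 and hormad1. hormad1 was at -3.00 ± 0.79 on the log2 scale (SE; edgeR adjusted p = 0.00159), on the counts of zebrafish replicate 5 alone. spo11 did not pass (0.69 ± 0.62, SE; edgeR adjusted p = 0.312).

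Grass carp sperm was set against the same zebrafish libraries, so its results are not independent of those above. All 8 genes were tested, and 5 were higher and 2 lower in grass carp, where 75.6% and 6.48% of 20106 genes were, 82.1% in all. sycp3, syce2, dmc1 and msh5 were at 27.2 ± 5.35, 24.3 ± 4.08, 20.7 ± 2.15 and 91.9 ± 11.2 CPM in grass carp (SD, n = 5) and at 0 in zebrafish. All 4 passed (edgeR adjusted p = 0.0142, 0.00973, 0.0128 and 6.17e-04). Without zebrafish counts they entered the test only through grass carp, which fixed their direction beforehand. With ribosomal RNA and mitochondrial genes left out, grass carp was at least 2.07-fold above those 3 counts for sycp3, 1.85-fold for syce2, 1.58-fold for dmc1 and 6.995-fold for msh5. On all named counts the values were 5.42-fold, 4.83-fold, 4.12-fold and 18.3-fold. msh4, also kept by the filter only through grass carp, was at 59.0 ± 7.52 CPM there (SD, n = 5), against 1 count in zebrafish (log2 difference 3.44 ± 0.74, SE; edgeR adjusted p = 0.00167).

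sycp1 was at 44.5 ± 6.92 CPM in grass carp (SD, n = 5) and lower than in zebrafish by the test (log2 difference -5.77 ± 1.47, SE; edgeR adjusted p = 0.00382), again with zebrafish replicate 1 below all grass carp libraries. Here too the high zebrafish counts of sycp1 were known beforehand. It was at -3.27 with RLE factors (adjusted p = 0.00871) and -3.25 with DESeq2 (adjusted p = 0.00385). hormad1 was at 18.5 ± 3.48 CPM in grass carp (SD, n = 5) and called lower (log2 difference -3.91 ± 0.85, SE; edgeR adjusted p = 0.00167). Without zebrafish replicate 5 its direction turned, to 8.41 (adjusted p = 0.0145), and it did not pass with RLE factors (-1.21; adjusted p = 0.107) or DESeq2 (-0.69; adjusted p = 0.675). spo11 averaged 40.1 CPM in grass carp (SD 7.99, n = 5), against 10.1 CPM in zebrafish (SD 13.96, n = 5). On named counts every grass carp library exceeded every zebrafish library for spo11, as for 6 of the 8 genes and 87.0% of all genes. The reverse held for 0 of the 8 and 0.189%. For spo11 the separation was lost with ribosomal RNA and mitochondrial genes left out. Zebrafish replicate 4, from 3 counts, then lay above all grass carp libraries, and replicate 5, from 4 counts, within their range. In the main fit spo11 had a log2 difference of 0.12 ± 0.70 (SE, with edgeR adjusted p = 0.879). It passed with RLE factors (2.75; adjusted p = 2.25e-04) and with library size alone (1.84; adjusted p = 0.00605). DESeq2 gave it 2.73 (adjusted p = 3.55e-06).

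Other meiotic genes were nearly without counts in zebrafish. Of the 57 matched, 47 had no count in any zebrafish library, where 66.9% of protein-coding genes had none, and 5 had 1. The other 5 were pms1 (15 counts), eme1 (5), rpa2 (3), rec8b (2) and blm (2). Among the 57, edgeR called 7 of 7 tested higher in GSCT than in zebrafish and 40 of 44 higher in grass carp than in zebrafish, with 0 lower in either. Among all genes tested 77.3% were higher and 9.94% lower in GSCT than in zebrafish, and 75.6% higher and 6.48% lower in grass carp than in zebrafish. Genes with 0 or 1 zebrafish count could pass the filter only through the other group, which largely fixed the direction of their calls beforehand. Of the genes called in GSCT against zebrafish, palb2, firrm, sycp2l and brca2 had no zebrafish counts, and mre11a and msh3 had 1 each (edgeR adjusted p from 6.99e-06 to 2.21e-05). nbn, also without zebrafish counts, was among those lowest in p for grass carp against zebrafish (edgeR adjusted p = 0.00110).

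The genes beside sycp1 in the grass carp gene table did not share its zebrafish counts. si:ch211-105j21.9, whose annotated span overlaps that of sycp1, and the nearest others, slc16a1a and slc5a8l, had 0 counts in all 5 zebrafish libraries. Of all protein-coding genes 66.9% had none there either. In GSCT si:ch211-105j21.9 had 30, 9 and 0 counts, and in grass carp 59, 32, 53, 21 and 75. Since the strand setting of the counting is not given, reads in the overlap of the 2 genes cannot be assigned to one of them with certainty. Beside hormad1, ensab had 1 zebrafish count, in replicate 4, and onecutl had 8, 8, 0, 6 and 7 counts in zebrafish replicates 1 to 5. Neither neighbour held more than 8 counts in a zebrafish library, against 53 on hormad1 in replicate 5.

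Over the 13 libraries, the 5 genes whose levels were most like those of sycp1, by Pearson correlation of log2(CPM + 1) among 28561 genes, were cfap299 (r = 0.954), LOC127522199 (0.941), ube2j2 (0.932), chmp5b (0.925) and elocb (0.923). cfap299 encodes a cilia and flagella associated protein, ube2j2 a ubiquitin-conjugating enzyme, chmp5b a subunit of the ESCRT-III complex and elocb an elongin C, and LOC127522199 is annotated as a long noncoding RNA. cfap299 was at 30.4, 19.6 and 26.5 CPM in GSCT replicates 1 to 3 and between 20.5 and 27.7 CPM in grass carp. In zebrafish replicates 1 to 5 it was at 0, 2920, 4107, 5098 and 2144 CPM. All 5 genes were at 0 in zebrafish replicate 1, as sycp1 was, and high in replicates 2 to 5. Without zebrafish replicate 3 the correlations of the same 5 genes ran from 0.903 to 0.943 over 12 libraries. The points share library depth and alignment across species, so the correlations describe these libraries only.

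**Figure D5:**
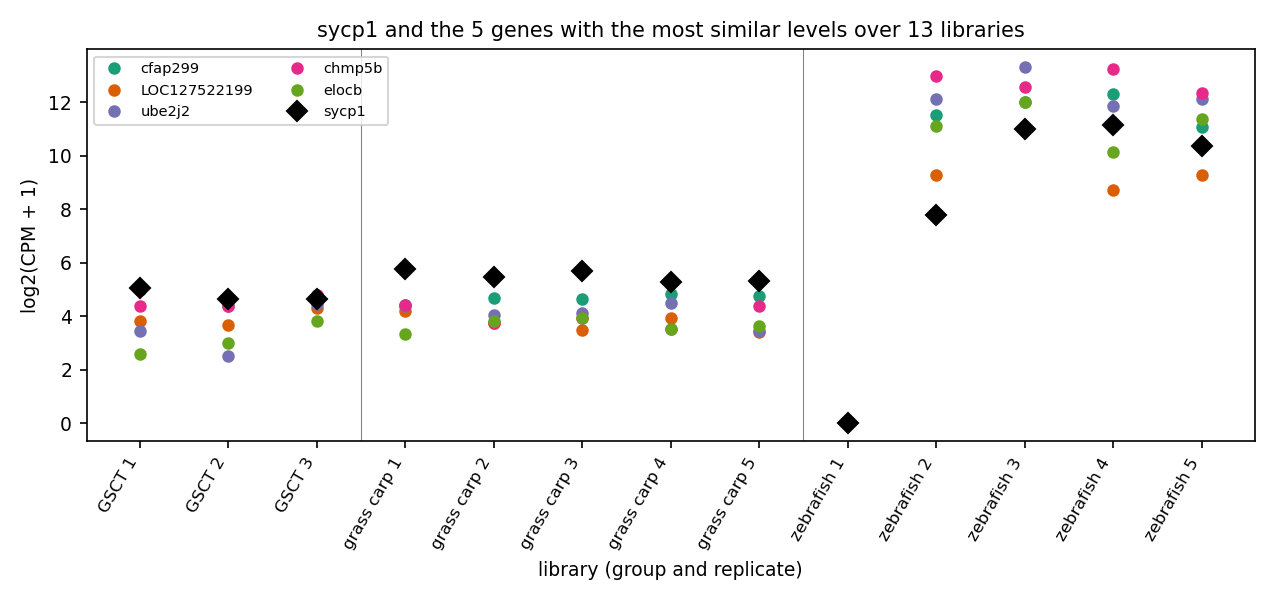
Level of sycp1 (black diamonds) and of the 5 genes most like it (coloured circles), as log2(CPM + 1), in the 3 GSCT, 5 grass carp and 5 zebrafish libraries. All 6 are at 0 in zebrafish replicate 1, and in zebrafish replicates 2 to 5 sycp1 lies between 219 and 2293 CPM, above its 23.9 to 31.9 CPM in GSCT.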

How the data were processed

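The authors deposited whole-number read counts for each gene and library, without normalisation. Tools named in the submitters' processing notes are HISAT2, featureCounts, Subread, SAMtools, fastp, FastQC and CASAVA, with no roles. Per the labels' protocols, diluted sperm went straight into a full-length mRNA amplification kit for single cells. The sources used here do not give versions, build, annotation or strand setting. All 29736 named entries outside numbered tRNA genes matched RefSeq symbols of the grass carp assembly HZGC01, in its order. That table gave gene type, span and neighbours. The 24 unnamed entries (0.172% to 0.678% of counts in GSCT, 0.00360% to 0.138% in grass carp and 13.8% to 77.9% in zebrafish libraries) were left out. No 2 libraries were identical.

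Each pair of groups was fitted with edgeR 4.0.16 (R 4.3.3): TMM factors, filter by group (minimum count 10, total 15), quasi-likelihood F test and Benjamini-Hochberg adjustment over all genes tested, with p under 0.05 called. Differences are log2 fold changes of the first group over the second, and the SE is the fold change over the root of F. Alternatives were RLE factors, library size alone, ribosomal RNA and mitochondrial genes left out, no filter, DESeq2 1.42.0, all groups in 1 fit, a replicate block, and each library left out. Bounds with ribosomal RNA and mitochondrial genes left out were added after seeing the data. Lists cover the 8 genes, 6 roles in meiosis (synaptonemal complex, breaks and axis, strand exchange, crossovers, telomere and entry, mismatch repair) and 6 marker sets. Text names all 8 genes, other meiotic genes past the threshold (at most 6 per comparison by p), the 3 highest per kb, neighbours, and the 5 genes most like sycp1. Genes and lists were chosen with earlier results of these data known. By the labels each library comes from a separate fish, with no batch named.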

Additional observations from a re-analysis of the deposited data

Results flagged for a closer look

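Of 12 sets of 5 libraries with any spread, 3 held a library far from the other 4, where chance flags about 1 in 20. That rate does not hold for the 2 zebrafish sets, in which any value above 0 stands apart because the other 4 are at 0. hormad1 was at 289 CPM in zebrafish replicate 5 and at 0 in the other 4 zebrafish libraries. msh4 was at 5.46 CPM in the same library, from 1 count, below the 16.4 CPM of 3 counts there, and at 0 in the other 4. syce2 was at 31.5 CPM in grass carp replicate 4, from 42 counts, where the other 4 grass carp libraries lay between 21.5 and 23.6 CPM. Grass carp replicate 4 was also the shallowest of its group, with 1335167 counts, and the exact 95% interval of that value ran from 22.7 to 42.5 CPM.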

How the results depend on the processing

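In GSCT against grass carp, the number of the 8 genes called was 1, against 2 with library size alone, 0 with DESeq2, 0 in a fit of all 3 groups and 0 to 1 with 1 library left out. The number of all genes called was 1223, against 512 in a fit of all 3 groups and 285 to 1534 with 1 library left out (679, 285 and 812 without GSCT replicates 1, 2 and 3, and 802 without grass carp replicate 5). In GSCT against zebrafish 2 of 2 tested were called. This became 1 with RLE factors, 0 with ribosomal RNA and mitochondrial genes left out (1 tested), 7 of 8 with no filter or all 3 groups in 1 fit, 1 under the replicate block and 1 to 2 with 1 library left out. All genes called numbered 4906, against 402 of 668 tested with those genes left out (290 higher and 112 lower, where 4347 and 559 had been), 21351 with no filter, 21612 in the fit of all 3 groups and 3646 to 6000 with 1 library left out. In grass carp against zebrafish 7 of 8 were called and 3 to 7 with 1 library left out, where leaving out a grass carp library left 3 tested, and all genes called numbered 16510 and 6092 to 20747. With more or fewer genes past the filter, more or fewer were tested; otherwise the cause was not tested.

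Direction turned for differences that had not passed: hormad1 in GSCT against grass carp with library size alone (-0.028) and across libraries left out (-0.043 to 0.19), and spo11 there across libraries left out (-0.43 to 0.061). It also turned for hormad1 in grass carp against zebrafish, which ran from -3.58 to 8.41 across libraries left out. Of the log2 differences under settings with all libraries, 196 kept direction and call, 4 gained a call, 9 lost one and 1 turned. With 1 library left out these numbers were 237, 1, 8 and 5. The 48 CPM means under other library sizes and the 104 with 1 library left out stayed within 1 SD, which is wide in zebrafish. There hormad1 averaged 57.8 CPM and 0 without replicate 5, spo11 10.1 CPM and 5.46 without replicate 4, and sycp1 1178 CPM, 1991 with ribosomal RNA and mitochondrial genes left out and 397 with unnamed entries included.

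The replicate numbers come from different fish and do not pair them: same-numbered libraries correlated at -0.0538 to 0.0619 in their deviations from group means. With the replicate block, genes called numbered 996, 3839 and 15269 in the order above, and 1, 1 and 5 of the 8 genes. Under it sycp1 was not called against zebrafish (-1.57 in GSCT and -3.57 in grass carp), nor was hormad1 in grass carp (-0.82). Depth limits the zebrafish libraries, where 3 counts equal 12.1 to 6160 CPM.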
